A study of Mus musculus with 6 samples.

Results

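The 29 genes described here are p53, its regulators, a set of its transcriptional targets and the regulators of apoptosis, taken by gene name from the table of 54532 genes. All 29 names were found, each once. Poly-A RNA of pancreatic islets was sequenced at an age of 7 weeks, with 3 samples in each of 2 groups, and islets of 3 mice went into every sample. The controls were Wtap flox/flox mice, whose Wtap gene carries recombination sites, and the other group was labelled Wtap-βKO, a deletion of Wtap in β cells. The labels name neither the Cre driver nor the deleted exons, and pooling hides the spread between mice. WTAP is a subunit of the complex that writes N6-methyladenosine on RNA, and its role in β-cell function is the question of the series.

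The transcription factor p53, encoded by Trp53 in mice, is held low by the ubiquitin ligase MDM2 and its partner MDM4, and is released by DNA damage and other stress. It then activates genes that arrest the cell cycle, limit growth signalling or start cell death. Death through the mitochondria is decided by the BCL2 family. Its survival members (MCL1, BCL-XL, BCL-W and BCL2) bind the pore formers BAX and BAK and the BH3-only proteins that trigger them, and β cells depend on this balance under stress.

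Libraries held between 16353297 and 18682745 reads recovered from the FPKM values, where FPKM is fragments per kilobase of gene scaled to a library size. That size, as implied by the worth of a single read, was 0.952 to 0.988 of the recovered reads in controls. It was 1.04 to 1.07 of them in the libraries labelled Wtap-βKO, and how it was set is not stated. The targeted gene was no lower where the label says it was deleted. Wtap was at 10.5, 11.3 and 11.5 in controls and 11.1, 11.8 and 12.2 in the libraries labelled Wtap-βKO (scaled FPKM, limma adjusted p = 0.475). Values of the whole gene cannot show the loss of single exons, so the libraries are named as labelled. As a check of the tissue, 8 β-cell markers summed to between 133250 and 153310 scaled FPKM in controls and between 80829 and 91349 in the libraries labelled Wtap-βKO. Ins1, Ins2 and Iapp made up nearly all of that sum, and the markers differed. Of the 8, limma called 6 lower, with Mafa falling 7.26-fold. Ins2 fell 1.57-fold without passing (adjusted p = 0.189), and Iapp was level at means of 13070 and 12864 (0.935). Several other cell types moved the opposite way. Of 5 tested α-cell markers 4 rose, and of 6 mesenchymal markers 4 rose, from a sum of 14.2 to 20.2 up to a sum of 27.7 to 36.2. In these bulk samples fewer cells of a type and less RNA per cell cannot be told apart. The part of cell makeup in the values below was not tested.

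What the rule did not use is the DNA at the start of each gene. Of the 29 members, 24 had a RefSeq promoter window (GRCm38.p6, 250 bases before to 50 after a start), and these windows were searched for the p53 half-site consensus, a 10-base motif that reads the same on either strand. At least 1 half-site was found in 9 of 34 member windows (26.5%), against 8.36% of all 32851 windows in the table. By gene this was 8 of 24 members (33.3%), against 9.55% of 27025 genes. The list was drawn up with known p53 targets in it, which favours a share above that of all genes, and no test was made. Among 30 other p53 targets, of which 23 had a window, the motif was in 4 genes (17.4%) and 4 of 36 windows (11.1%), and 0 held a full site. Some windows of 1 gene overlap, and p53 can bind outside these windows, so no match says only that the motif is not in them. The windows around the matches are shown because a p53 site is what a direct target of the factor is known for. Half-sites are in capitals and each piece reads 5′ to 3′ along its gene.

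Cdkn1a: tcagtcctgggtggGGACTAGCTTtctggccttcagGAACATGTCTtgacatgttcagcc
Mdm2: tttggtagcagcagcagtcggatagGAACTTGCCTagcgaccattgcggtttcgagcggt
Ccng1: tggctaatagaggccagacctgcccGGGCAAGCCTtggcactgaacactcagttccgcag
Sesn1: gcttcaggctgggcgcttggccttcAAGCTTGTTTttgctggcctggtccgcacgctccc
Trp53: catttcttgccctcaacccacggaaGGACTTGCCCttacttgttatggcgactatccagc
Bax: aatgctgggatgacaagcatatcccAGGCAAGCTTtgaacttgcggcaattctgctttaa
Aen: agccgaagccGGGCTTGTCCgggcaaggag
Gadd45a: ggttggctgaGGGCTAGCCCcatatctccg

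The Cdkn1a piece (chr17:29090892-29090951, plus strand) was the only member window with 2 half-sites no more than 13 bases apart, which is the form of a full p53 site. They stand 12 bases apart, 73 and 51 bases before the start, and such a pair was found in 24 of all 32851 windows (0.0731%). The search allowed no mismatch. The stretch tgacatgttc, which directly follows the second half-site and departs from the consensus in its first base, is therefore not marked. Which stretches p53 binds was not tested. The half-site of Mdm2 (chr10:117710910-117710969, minus strand) lies 186 bases before its start, that of Ccng1 (chr11:40755437-40755496, minus strand) 185 bases before. In Sesn1 (chr10:41887241-41887300, plus strand) it lies 173 bases before a start, in Trp53 (chr11:69580259-69580318, plus strand) 75 bases and in Bax (chr7:45467065-45467124, minus strand) 201 bases. In Gadd45a (chr6:67037428-67037457, minus strand) it lies 40 bases before the RefSeq start, in a piece that overlaps an annotated exon. The Aen site (chr7:78895927-78895956, plus strand) lies 121 bases before the downstream of 2 annotated starts. It is also 10 bases after the upstream start, in a piece that overlaps an annotated exon. Among the 6 members called changed below, a half-site was found for Aen alone, and a member without a window could not show one.

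Of the 29 members, 27 reached a mean of 0.5 FPKM and were tested. The survival genes Mcl1 and Bcl2l1 and the p53 targets Phlda3 and Aen rose, and the p53 inhibitor gene Mdm4 and the BH3-only gene Bcl2l11 fell, all by less than 2-fold. The test was limma on log2(scaled FPKM + 1), with Benjamini-Hochberg adjustment across 15927 genes and 0.05 as the threshold. The 4 that rose were 14.8% of tested members, against 8.77% of all genes tested, and the 2 that fell were 7.41%, against 11.3%. Values of the groups did not overlap for 12 members (44.4%), against 41.3% of all genes. The median log2 fold change was 0.03 over the tested members and -0.005 over all genes. These counts stand near those of all genes, and the members did not move as a block: 17 were fitted above 0 and 10 below.

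Those counts depended on scaling and on single libraries. Scaling to total recovered reads shifted the median gene upwards by 0.087 (log2) and raised the share of higher calls among all calls from 43.7% to 68.1%. With that scaling limma called 5 members higher and 0 lower, and Mdm4 and Bcl2l11 no longer passed. Voom, which models the recovered reads, called 6 higher and 2 lower. At the reported scaling 9 members had an unadjusted p under 0.05. Without control replicate 1, 2 or 3, limma called 2, 3 and 2 members higher and 0, 0 and 1 lower. Without replicate 1, 2 or 3 labelled Wtap-βKO it called 3, 6 and 3 higher and 0, 1 and 0 lower. Mcl1 and Phlda3 were called in each of these fits.

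**Figure D1:**
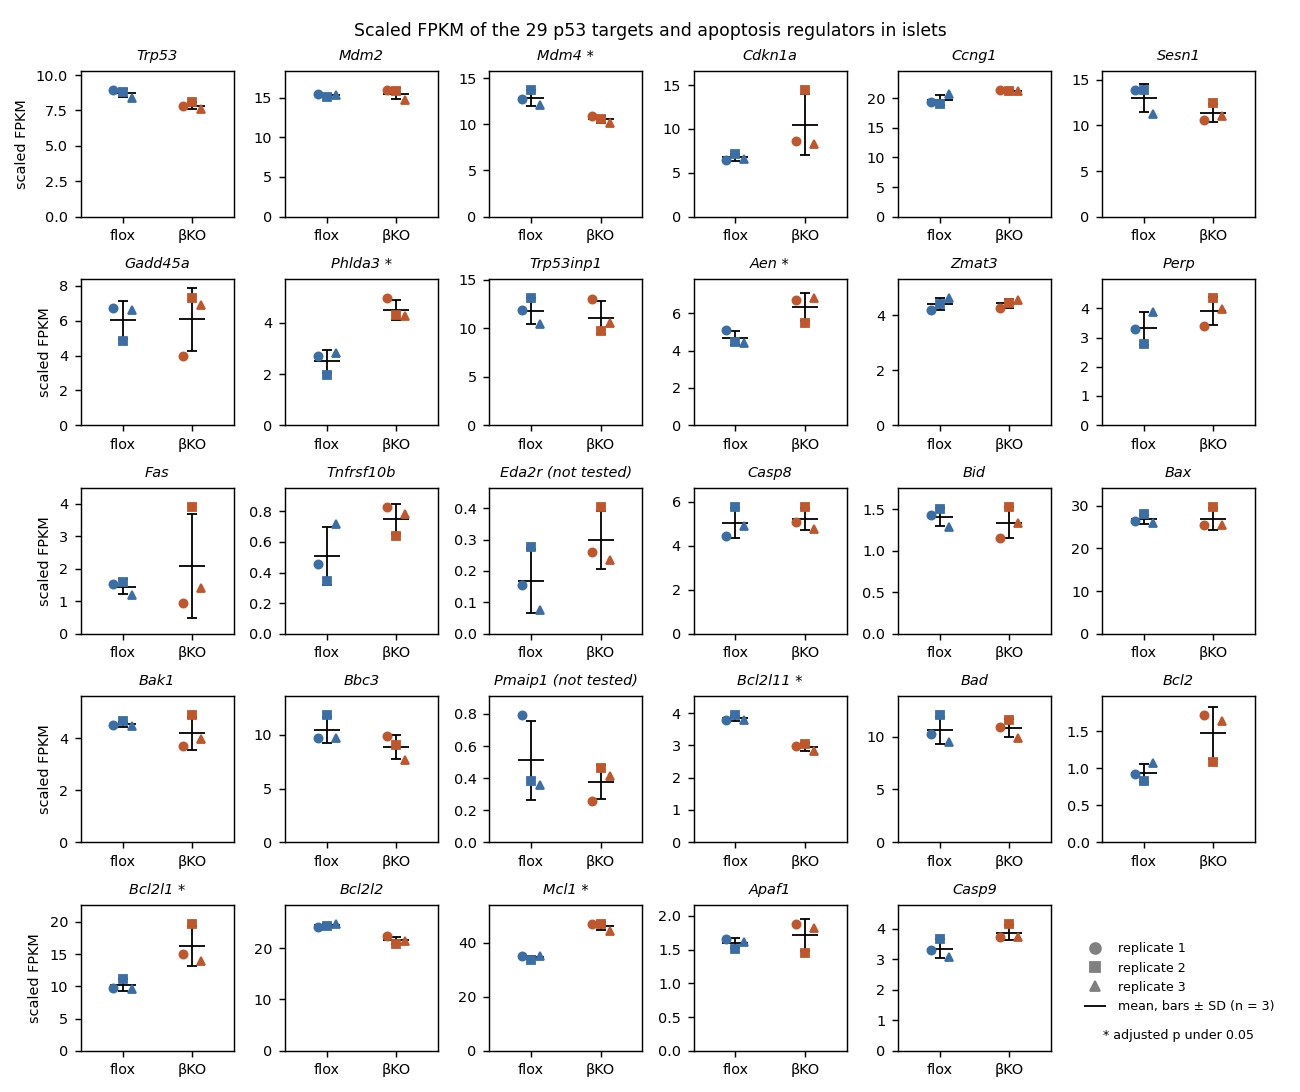
Scaled FPKM (y axis, from 0) of all 29 members in the 3 Wtap flox/flox samples (blue) and the 3 labelled Wtap-βKO (orange), with the mean and SD and 1 symbol per replicate number. Mcl1, Phlda3 and Bcl2l11 show groups that stand clear of each other, while Cdkn1a, Fas and Bcl2l1 show replicate 2 labelled Wtap-βKO above the rest.

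Trp53 itself, which encodes p53, was measured at 8.96, 8.78 and 8.39 scaled FPKM in controls and at 7.78, 8.09 and 7.63 in the libraries labelled Wtap-βKO. Every value of that group was below every control value, but the difference was small and did not pass (log2 fold change -0.14 with SE 0.058, 95% interval -0.27 to 0.001, limma adjusted p = 0.146). It was -0.035 when scaled to total recovered reads. Since p53 is controlled mostly through the stability of its protein, its messenger RNA is not a measure of its activity.

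Mdm4, whose protein binds p53 and blocks its transactivation, was at 12.7, 13.7 and 12.1 in controls and at 10.9, 10.5 and 10.2 in the libraries labelled Wtap-βKO. The groups did not overlap, and it fell 1.22-fold (log2 fold change -0.26 with SE 0.065, limma adjusted p = 0.0319). This call was a narrow one. It was lost without control replicate 1 or 2 (adjusted p = 0.0866 and 0.0930), without replicate 1, 2 or 3 labelled Wtap-βKO (0.0590, 0.0523 and 0.0989) and when scaled to total recovered reads (0.156), and the log2 fold change lay between -0.30 and -0.16 over 19 alternatives. Mdm4 lies at chr1:132959484-133030561 on the minus strand. Mdm2, the ubiquitin ligase that marks p53 for destruction and is itself a classical p53 target, was level, at 15.3 ± 0.182 and 15.5 ± 0.701 (SD, n = 3 each; log2 fold change 0.02, 95% interval -0.11 to 0.15). The ratio of Mdm2 to Mdm4 levels was 1.19 ± 0.0860 in controls and 1.47 ± 0.0278 in the other group.

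Phlda3, whose pleckstrin homology protein competes with AKT for membrane lipids and is a p53-induced brake on islet cell survival, was at 2.69, 1.98 and 2.83 in controls and at 4.96, 4.30 and 4.28 in the libraries labelled Wtap-βKO. No value of the groups overlapped, and the mean rose 1.81-fold (log2 fold change 0.66 with SE 0.12, limma adjusted p = 0.00994). The call held in all 18 alternatives in which it was tested, with adjusted p from 0.00265 to 0.0364. It rested on 49 to 147 reads per library. Phlda3 lies at chr1:135766119-135769136 on the plus strand (GRCm38).

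Aen encodes a nuclease that p53 induces and that degrades DNA during apoptosis. It was at 5.09, 4.46 and 4.41 in controls and at 6.72, 5.46 and 6.81 in the libraries labelled Wtap-βKO, and the lowest of that group, replicate 2, was still above the highest control. Its mean rose 1.36-fold (log2 fold change 0.37 with SE 0.097, limma adjusted p = 0.0386). The call was lost without control replicate 1, 2 or 3 (adjusted p = 0.0591, 0.113 and 0.116), without replicate 1 or 3 labelled Wtap-βKO (0.108 and 0.116) and in 2 further alternatives of 19. Aen lies at chr7:78895854-78911209 on the plus strand.

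Cdkn1a, which encodes the cell cycle inhibitor p21 and has the pair of half-site matches printed above, was at 6.47, 7.16 and 6.61 in controls and at 8.64, 14.5 and 8.30 in the libraries labelled Wtap-βKO. All 3 values of that group were above all controls, and replicate 2 stood far above its group. The mean was 1.55-fold that of controls and did not pass the test (log2 fold change 0.53 with SE 0.19, limma adjusted p = 0.0963). Without replicate 2 labelled Wtap-βKO the difference was smaller but passed (log2 fold change 0.29, adjusted p = 0.0335), and it passed by voom on all 6 libraries (0.0288). That library also had δ- and PP-cell markers summing to 34209 scaled FPKM, against 18160 and 19186 in the other libraries of its group and 15326 to 17204 in controls. The PP-cell hormone gene Ppy made up most of it, at 19446 against 9359 and 8697 in the others. The δ-cell hormone gene Sst stood out less, at 8012 against 5382 and 6471. The part of this in the Cdkn1a value was not tested.

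Other p53 targets showed no change that passed. Ccng1, a cyclin that feeds back on MDM2, was at 19.4, 19.0 and 20.7 in controls and at 21.5, 21.2 and 21.3 in the other group, which did not overlap (log2 fold change 0.11, adjusted p = 0.204 by limma; 0.22 and 0.0294 when scaled to total recovered reads). Sesn1, a sestrin that restrains mTORC1, was at 13.9, 13.9 and 11.2 in controls and at 10.6, 12.5 and 11 in the other group (log2 fold change -0.18, adjusted p = 0.257). The stress-induced gene Gadd45a varied more within groups than between them, from 4.81 to 6.74 in controls and from 4 to 7.29 in the libraries labelled Wtap-βKO. Trp53inp1, a nuclear cofactor of p53 that also acts in autophagy, was at 11.8 ± 1.34 and 11.1 ± 1.70. Zmat3, an RNA-binding target of p53, was at 4.42 ± 0.210 and 4.43 ± 0.150, a log2 fold change of 0.004 with a 95% interval of -0.16 to 0.16. Perp, a membrane protein gene of the p53 death programme, was at 3.31 ± 0.560 and 3.91 ± 0.478. Of the 9 p53 targets in this role 2 rose, 0 fell and 7 did not pass, where 8.77% of all genes rose and 11.3% fell. At an unadjusted p under 0.05 there were 3, and voom called Cdkn1a, Phlda3 and Aen higher.

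**Figure D2:**
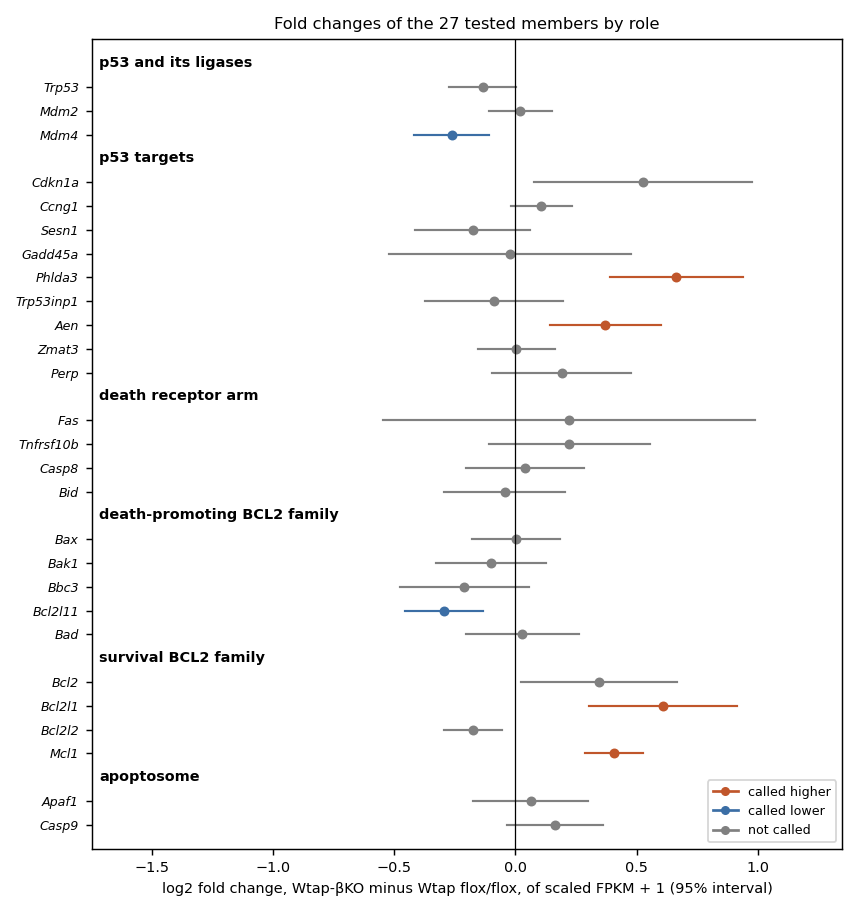
Log2 fold change of scaled FPKM + 1 (x axis, Wtap-βKO minus Wtap flox/flox) with its 95% interval for the 27 tested members, grouped by role (y axis). Intervals of Phlda3, Aen, Bcl2l1 and Mcl1 (orange, called higher) and of Mdm4 and Bcl2l11 (blue, called lower) lie off 0, most others cross it, and Fas has the widest interval.

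In the extrinsic arm, where receptors at the cell surface start death from outside, limma called 0 of 4 tested genes, with 0 at an unadjusted p under 0.05. Voom called 0 as well. Over all genes tested limma called 8.77% higher and 11.3% lower, and 4 genes are too few to tell this arm from all genes. Fas, the receptor of FAS ligand and itself a p53 target, was at 1.54, 1.61 and 1.18 in controls and at 0.936, 3.91 and 1.41 in the libraries labelled Wtap-βKO. Replicate 2 of that group held 127 reads of Fas, against 32 and 44 in the others, and the log2 fold change of 0.22 (adjusted p = 0.669) turned to -0.17 without it. Tnfrsf10b, the mouse receptor of the death ligand TRAIL, was near the filter at 0.507 ± 0.190 and 0.751 ± 0.0985. Eda2r, a receptor of ectodysplasin A2 that p53 also induces, was below it, with values from 0.0758 to 0.405 on 8 to 43 reads per library, and was not tested. Casp8, the caspase these receptors activate, was at 5.05 ± 0.676 and 5.20 ± 0.499. Bid, the BH3-only protein that caspase 8 cuts to reach the mitochondria, was at 1.41 ± 0.110 and 1.34 ± 0.187.

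Among the 5 tested death-promoting BCL2 genes Bcl2l11 fell and the others did not pass, where 8.77% of all genes rose and 11.3% fell. Bcl2l11 encodes BIM, a BH3-only protein that binds every survival member. Its values were 3.78, 3.94 and 3.80 in controls and 2.98, 3.05 and 2.82 in the libraries labelled Wtap-βKO, tight groups that stood apart. The fall was 1.30-fold (log2 fold change -0.29 with SE 0.068, limma adjusted p = 0.0255). It no longer passed without control replicate 1, 2 or 3 (adjusted p = 0.0743, 0.0810 and 0.0721), without replicate 1 or 3 labelled Wtap-βKO (0.0626 and 0.0849), or when scaled to total recovered reads (0.0827). Its log2 fold change was between -0.38 and -0.21 over 18 alternatives. The gene lies at chr2:128126038-128162547 on the plus strand.

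Bax, the pore former with the second highest level of all members, was at 26.5, 28.1 and 25.9 in controls and at 25.5, 29.8 and 25.4 in the libraries labelled Wtap-βKO. The groups overlapped throughout, with a log2 fold change of 0.001 and a 95% interval of -0.18 to 0.18. The other pore former, Bak1, was at 4.54 ± 0.0998 and 4.18 ± 0.621 (log2 fold change -0.10). Bbc3, which encodes the p53-induced BH3-only protein PUMA, was at 9.71, 11.8 and 9.72 in controls and at 9.92, 9.06 and 7.64 in the other group (log2 fold change -0.21, adjusted p = 0.228). Bad, a BH3-only protein gene governed by AKT phosphorylation, was at 10.6 ± 1.31 and 10.8 ± 0.851. Pmaip1, which encodes the p53-induced protein NOXA that binds MCL1, held 13 to 37 reads per library and was not tested, at 0.510 ± 0.244 and 0.378 ± 0.106.

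Of the 4 survival members 2 rose and 0 fell, where 8.77% of all genes rose and 11.3% fell. Each of the 4 had groups that did not overlap, against 41.3% of all genes. Mcl1, whose short-lived protein binds BAK and BIM, had the highest level of all members in each group. It was at 35.0, 33.8 and 35.0 in controls and at 47.0, 47.1 and 44.5 in the libraries labelled Wtap-βKO. The gap between the groups was wider than the spread within either, and Mcl1 rose 1.33-fold (log2 fold change 0.41 with SE 0.050, 95% interval 0.29 to 0.53, limma adjusted p = 0.00304). The call held in all 19 alternatives, with log2 fold changes from 0.39 to 0.52. It lies at chr3:95658788-95663176 on the plus strand.

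Bcl2l1 encodes BCL-XL and, by alternative splicing, the death-promoting BCL-XS, which a value for the whole gene adds together. It was at 9.76, 11.2 and 9.66 in controls and at 15.1, 19.7 and 13.9 in the libraries labelled Wtap-βKO. All values of that group lay above the controls, with replicate 2 the highest. The mean rose 1.59-fold (log2 fold change 0.61 with SE 0.13, limma adjusted p = 0.0188), and from rank 11 of the 29 members in controls it came to rank 5. Without replicate 2 labelled Wtap-βKO the log2 fold change was 0.47 and still passed (0.0145), while without control replicate 1 or 3 it did not (0.0646 and 0.0656). Bcl2l1 lies at chr2:152780668-152831728 on the minus strand.

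Bcl2l2, which encodes BCL-W, was the third highest member. It went down rather than up, from 24.1, 24.4 and 24.7 in controls to values of 22.3, 20.9 and 21.3, and just missed the threshold (log2 fold change -0.18 with SE 0.051, limma adjusted p = 0.0518). Among genes with a mean of at least 5 FPKM it passed (0.0447), and when scaled to total recovered reads its log2 fold change was -0.07 (0.421). Bcl2, the founding gene of the family, was low in islets, at 0.922, 0.824 and 1.07 in controls and 1.71, 1.08 and 1.64 in the libraries labelled Wtap-βKO. Replicate 2 of that group was just above the highest control, and the difference did not pass (log2 fold change 0.35, SE 0.14, adjusted p = 0.120). It passed by voom (0.0301) and without replicate 2 labelled Wtap-βKO (log2 fold change 0.47, adjusted p = 0.0373).

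**Figure D3:**
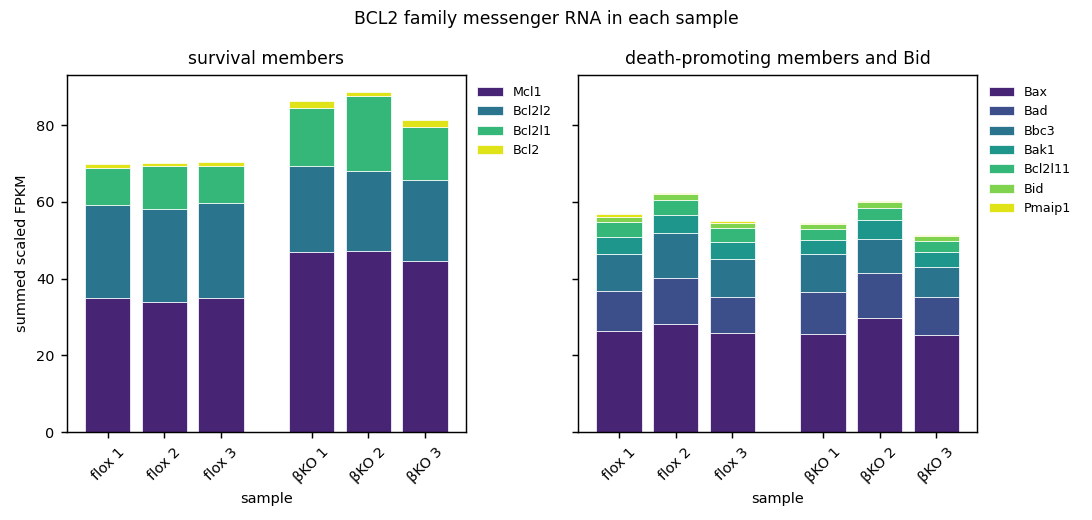
Scaled FPKM (y axis, from 0) of the BCL2 family members stacked by gene in each of the 6 samples (x axis), survival members on the left, death-promoting members and Bid on the right. Survival members sum to 69.8 to 70.5 in controls and 81.3 to 88.8 in the samples labelled Wtap-βKO, while the sums on the right overlap between the groups.

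FPKM is scaled to length, so levels can be added across genes. The 4 survival members summed to 69.8, 70.2 and 70.5 scaled FPKM in controls and to 86.2, 88.8 and 81.3 in the libraries labelled Wtap-βKO. The 6 death-promoting members and Bid summed to 57.0, 62.4 and 54.9 and to 54.4, 60.3 and 51.5, so those groups overlapped. The ratio of the sums was 1.23, 1.12 and 1.28 in controls and 1.58, 1.47 and 1.58 in the other group. Within the survival sum the share of Mcl1 was 49.3% ± 1.06 and 54.1% ± 0.910, that of Bcl2l1 14.6% ± 1.23 and 18.9% ± 2.85, and that of Bcl2l2 34.8% ± 0.296 and 25.2% ± 1.49 (SD, n = 3 each). The level of Bcl2l1 over Bcl2l11 was 2.54 to 2.85 in controls and 4.92 to 6.47 in the libraries labelled Wtap-βKO. These sums and ratios describe messenger RNA of whole islets, were formed from members with known fold changes and carry no test.

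Downstream of the mitochondria, Apaf1, the scaffold of the apoptosome, was at 1.66, 1.51 and 1.62 in controls and at 1.88, 1.45 and 1.82 in the other group (log2 fold change 0.06, adjusted p = 0.699). Casp9, the caspase it activates, was at 3.29, 3.68 and 3.07 in controls and at 3.72, 4.16 and 3.73 in the libraries labelled Wtap-βKO. Its groups did not overlap and it did not pass (log2 fold change 0.17, adjusted p = 0.209). Casp9 overlaps the acinar elastase gene Cela2a on the opposite strand, which was at 5.36, 3.68 and 8.26 in controls and at 10.9, 7.30 and 6.58 in the other group. The strand setting of the counting is not given, so whether reads of the pair were told apart where they overlap is not known. In all, 14 of the 29 members overlap another annotated gene, among them Mdm4, Cdkn1a, Bak1, Bad and Bax, and Bid overlaps Bcl2l13. Of the 6 called members Mdm4 alone overlaps one, a pseudogene with a mean of 0.209 scaled FPKM.

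**Figure D4:**
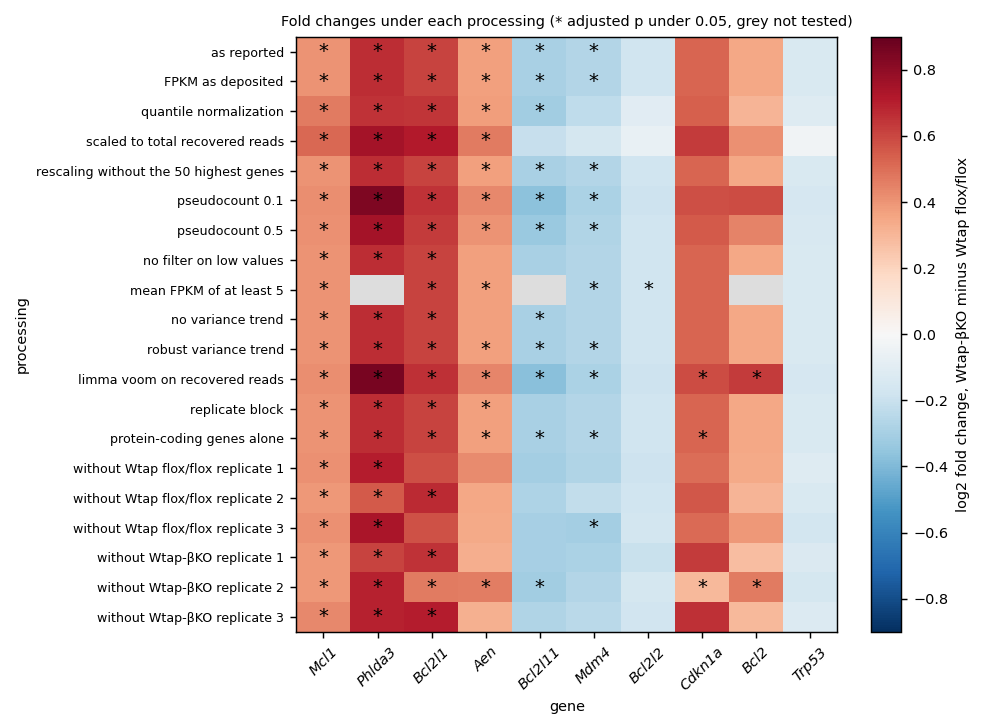
Log2 fold change (colour) of 10 members (x axis) as reported and under 19 alternatives (y axis), with an asterisk where the adjusted p is under 0.05 and grey where the gene was not tested. Mcl1 is starred in every row and Phlda3 in every row where it was tested, Mdm4 is starred in 9 of 19 alternatives and Bcl2l11 in 10 of 18, and Trp53 has no star.

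A wider set of 105 pathway genes was read beside the members, of which 87 were tested. The genes named from it were taken by smallest adjusted p in these same data, up to 4 from each of 5 lists. Tigar and Thbs1 were added to these. By limma 6 rose (6.90%, against 8.77% of all genes) and 6 fell (6.90%, against 11.3%), and the median log2 fold change was -0.02. Of 25 tested other p53 targets 3 rose and 3 fell. Plk3, a stress-activated polo-like kinase, was at 12.3, 11.6 and 15.5 in controls and at 4.33, 5.28 and 6.25 in the libraries labelled Wtap-βKO. It fell 2.48-fold (log2 fold change -1.17 with SE 0.14, limma adjusted p = 0.00289), and this call held in all 19 alternatives. Rrm2b, the p53-induced ribonucleotide reductase subunit, fell 1.32-fold (adjusted p = 0.0167; 0.0636 and 0.0622 without control replicate 1 or 3). An overlapping processed pseudogene on its strand may share its reads. Tigar, which lowers glycolytic flux and was named after its values were seen, fell 1.27-fold (adjusted p = 0.0475). That call was lost without control replicate 2 or 3 (0.13 and 0.133) and without replicate 1 or 3 labelled Wtap-βKO (0.117 and 0.127).

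Triap1, a p53-induced inhibitor of apoptosis, was at 20, 20.3 and 18.6 in controls and at 25.6, 29.8 and 25.9 in the libraries labelled Wtap-βKO. It rose 1.38-fold (log2 fold change 0.44 with SE 0.074, limma adjusted p = 0.00829), a call that held in all 19 alternatives. Ddit4, which encodes the mTORC1 inhibitor REDD1, rose 1.47-fold, from 97.3 ± 4.15 to 143 ± 23.4 (adjusted p = 0.0196; 0.0658, 0.0533 and 0.0675 without control replicate 1, 2 or 3, and 0.0548 without replicate 1 labelled Wtap-βKO). Thbs1, the secreted thrombospondin that mesenchymal and other cells make, was likewise named after its values were seen and rose 1.56-fold (adjusted p = 0.0300). Without control replicate 1 or 2 or replicate 1 or 3 labelled Wtap-βKO it did not pass (0.0912, 0.0956, 0.0862 and 0.0917). It rose beside the mesenchymal markers given above, whose part in it was not tested.

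Upstream of p53, 1 of 24 tested regulators and DNA damage genes rose and 2 fell, where 8.77% of all genes rose and 11.3% fell. Of the 24, 4 were fitted above 0 and 20 below. Values of the groups did not overlap for 9 of them (37.5%, against 41.3% of all genes), 1 higher and 8 lower. Whether this list differs from all genes was not tested. Atm, the kinase that signals DNA breaks to p53, was at 8.54, 9.23 and 9.37 in controls and at 4.96, 4.40 and 4.19 in the libraries labelled Wtap-βKO. Its groups stood apart, and it fell (log2 fold change -0.87 with SE 0.076, limma adjusted p = 0.000854). Dyrk2, a kinase that phosphorylates p53, fell 1.57-fold, from 17.4 ± 1.36 to 11.1 ± 0.952 (adjusted p = 0.00436). Atm and Dyrk2 were called in all 19 alternatives. Ppm1d, the p53-induced phosphatase WIP1 that shuts the damage signal off, rose 1.27-fold (adjusted p = 0.0220). Its call was lost without control replicate 1, 2 or 3 (0.0690, 0.0774 and 0.0540) and without replicate 3 labelled Wtap-βKO (0.0593). Rchy1, another ubiquitin ligase of p53, was at 12.3 ± 0.611 and 10.6 ± 1.28 and did not pass (0.150).

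Among 17 caspases, inhibitors of apoptosis and mitochondrial factors 1 fell (5.88%, against 11.3% of all genes). Dffb, the nuclease that cuts DNA between nucleosomes in dying cells, was at 6.33, 5.81 and 5.76 in controls and at 3.22, 2.95 and 3.08 in the libraries labelled Wtap-βKO. It fell 1.93-fold (log2 fold change -0.77 with SE 0.070, limma adjusted p = 0.000939) and was called in all 18 alternatives in which it was tested. Casp6 and Endog, an effector caspase and a mitochondrial nuclease, did not pass, at 1.22 ± 0.200 and 1.65 ± 0.290 and at 11.6 ± 1.11 and 13.6 ± 1.53.

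In death receptor signalling 1 of 12 tested genes rose and 0 fell, with 3 at an unadjusted p under 0.05. Over all genes 8.77% rose and 11.3% fell. Tradd, the adaptor of the TNF receptor, rose 1.37-fold, from 6.12 ± 0.490 to 8.39 ± 0.703 (adjusted p = 0.0180; 0.0622 and 0.0633 without control replicate 2 or 3). Cyld, a deubiquitinase of the same pathway, was at 8.43 ± 0.366 and 7.27 ± 0.283 and did not pass (0.0764). Neither did Ngfr (0.112), a low-expressed neurotrophin receptor, or the TNF receptor gene Tnfrsf1b (0.196). By voom Cyld and Ngfr passed (0.0363 and 0.0463). Of 9 other tested BCL2 family genes and mitochondrial channels limma called 0 and voom 1, and 1 had an unadjusted p under 0.05. Voom's was Bcl2l13 (0.0166), a mitochondrial family member, at 7.39 ± 0.479 and 5.93 ± 0.576 (adjusted p = 0.0596). The mitophagy receptor gene Bnip3 was at 17.7 ± 1.24 and 22.8 ± 4.93, with replicate 2 labelled Wtap-βKO at 28.5. Vdac1, the main channel of the outer mitochondrial membrane, was at 37.9, 47.9 and 37.4 in that group against 46.4 to 47.4 in controls, and without its replicate 2 it was lower (log2 fold change -0.31, adjusted p = 0.00748). Bik, a BH3-only gene, was at 2.47 ± 0.294 and 2.98 ± 0.376.

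**Figure D5:**
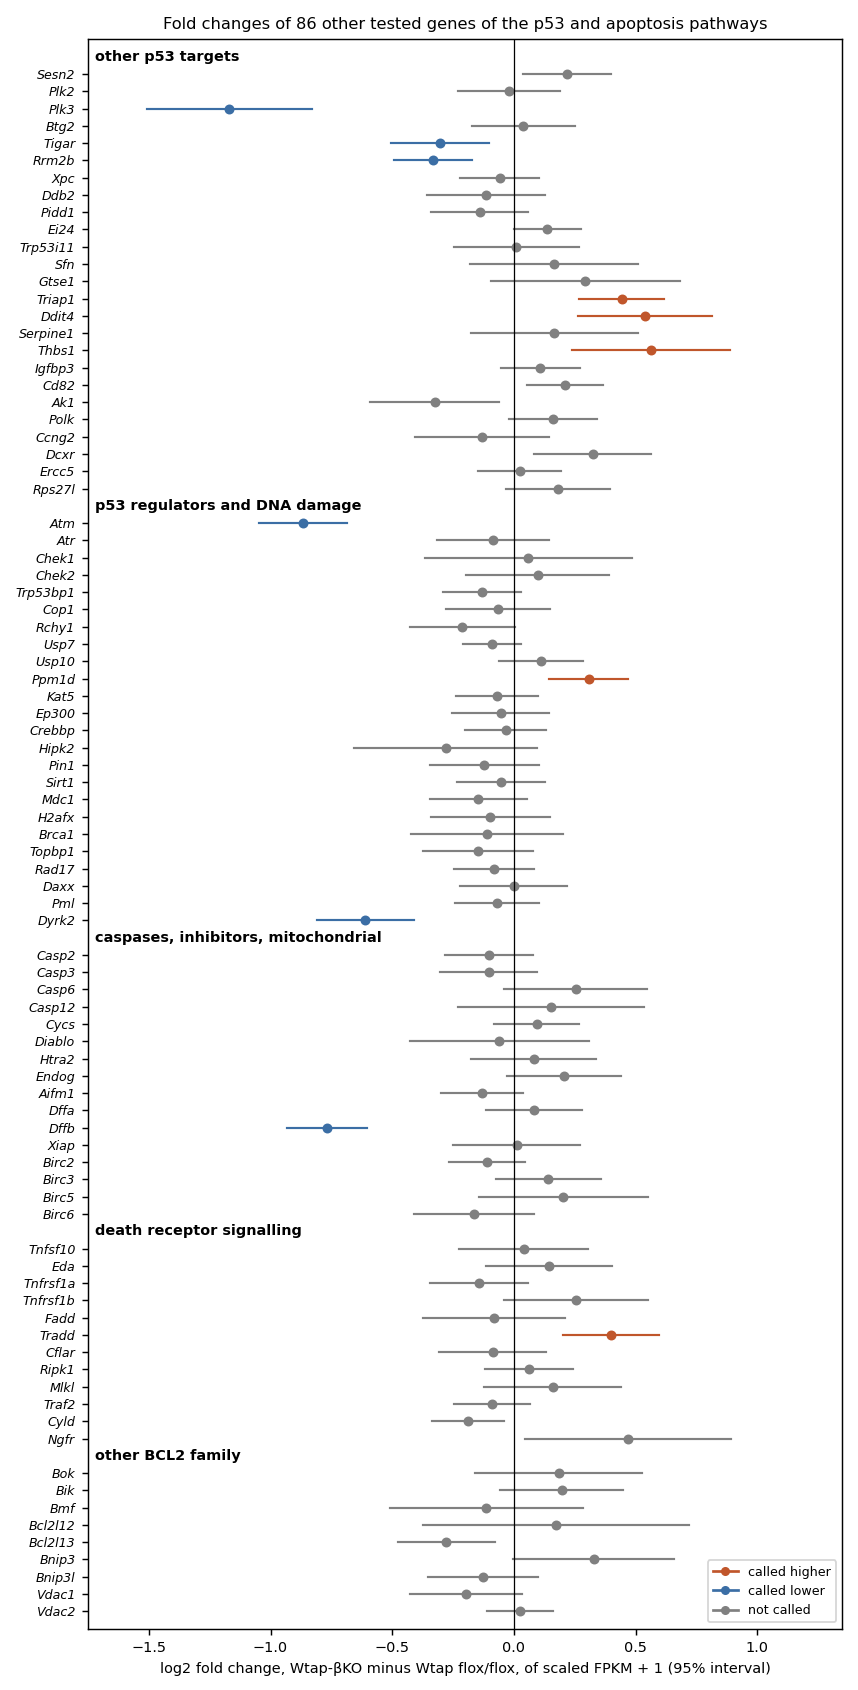
Log2 fold change of scaled FPKM + 1 (x axis, Wtap-βKO minus Wtap flox/flox) with its 95% interval for 86 other tested genes of the p53 and apoptosis pathways, in 5 groups (y axis). Plk3, Atm, Dffb and Dyrk2 lie farthest to the left of 0, and the intervals of 67 of the 86 genes cross it.

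Replicate 2 labelled Wtap-βKO stood apart within its group in many of these genes. It was the highest of its group for 15 of the 27 tested members and the lowest for 7, while replicate 3 was the highest for 2 and the lowest for 12. Cdkn1a, Fas and Bcl2l1 were among those in which it was high, and Bcl2, Aen and Apaf1 among those in which it was low. The labels give no batch for any library.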

How the data were processed

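The authors deposited 1 table of FPKM values with 1 column per sample and a gene length in bases, per the file headers. The submitters' processing notes list DESeq2 1.20.0, featureCounts 1.5.0-p3, HISAT2 2.0.5 and CASAVA, and the builds mm10 and GRCm38. Strand setting and annotation are not given in the sources used here. Values times length were whole reads within 0.01 read for 100.0% of values. FPKM values were divided by a median-of-ratios factor, 1.01 in every sample, so it altered nothing between samples. The deposited values were thus already even by that measure. Scaling to total recovered reads replaced the implied library sizes, whereas voom kept them.

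Genes with a mean of at least 0.5 FPKM were tested with limma 3.58.1 in R 4.3.3 (log2(scaled FPKM + 1), variance trend, two-sided, Benjamini-Hochberg over all genes tested). The pseudocount of 1 understates changes of low genes, folds are ratios of mean scaled FPKM, and scaled FPKM is the unit of every level. The SE draws on the spread of all genes as well. The reported limma test, but not its alternatives, was tested on simulated data. It called 28 of 99 simulated 1.5-fold changes, 74 of 98 2-fold changes and 7 of 15540 unchanged genes. In that simulation it missed most changes of 1.5-fold, so a gene that did not pass is not thereby shown to be unchanged. Per the labels, replicates were independent. Their counts of recovered reads differed by 5.38 to 18.1 chi-square units per degree of freedom, more than sampling noise. Pairs with replicate 2 labelled Wtap-βKO stood at 18.1 and 17.2, and all other pairs within a group at 5.38 to 6.61. The 29 members, the lists and the tests were chosen with earlier results of these data known. Named beside the members were Wtap and, from each of 5 wider lists, up to 4 genes of mean 1 or more, taken by smallest adjusted p. Motif matches came from RefSeq promoter sequences (GRCm38.p6). The sequence windows were read along the gene. Alternatives were other scalings, pseudocounts, filters and variance models, leaving out each sample, voom, protein-coding genes alone and the replicate block. Python 3.11.15, pandas 2.3.3 and matplotlib 3.10.9 were used. A gene of the wider lists is counted in the totals and its own values are not reported here.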

Additional observations from a re-analysis of the deposited data

How the results depend on the processing

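The count of members called lower, 2 as reported, was 1 under quantile normalization and without a variance trend, and 0 when scaled to total recovered reads, without a filter on low values and with the replicate block. Leaving out 1 library at a time gave 2 to 6 members called higher and 0 to 1 called lower. For the 87 other pathway genes it gave 1 to 6 higher and 4 to 8 lower, and scaling to total recovered reads gave 11 higher. Of 952 values of named genes under the alternatives, 859 kept their direction and side of the threshold, 62 lost the call, 13 gained it and 18 changed sign, all of them in members with no call in any setting. Sign changes came when scaled to total recovered reads for Gadd45a (0.074), Trp53inp1 (0.016) and Bid (0.020), and with 1 library left out, over the ranges -0.004 to 0.054 for Mdm2, -0.16 to 0.21 for Gadd45a, -0.026 to 0.030 for Zmat3, -0.17 to 0.50 for Fas, -0.035 to 0.12 for Casp8, -0.10 to 0.011 for Bid, -0.073 to 0.04 for Bax and -0.044 to 0.11 for Bad. The cause was not tested. The labels say nothing of a pairing of same-numbered samples. Deviations of these samples from the group means correlated at 0.029, 0.038 and 0.019, each the highest for either sample of its pair. The pairing as a replicate block gave 4 members higher and 0 lower. Whether the samples were paired is not known. Depth limits Pmaip1, Eda2r, Fas and Tnfrsf10b, at 124, 146, 336 and 367 reads over all 6 libraries.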
